A study of Mus musculus with 6 samples.

Results

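Erythroid iron uptake and ferritin storage were followed through 10 genes: Tfrc and Tfr2 (transferrin receptors), Steap3 and Slc11a2 (release of iron from the endosome), Fth1 and Ftl1 (ferritin subunits), Pcbp1 (iron chaperone), Ncoa4 (ferritin turnover), and Ireb2 and Aco1 (iron regulatory proteins). The genes were chosen by name, and all 10 were found among the 41325 gene rows of each library. The libraries came from female ICR mice, an outbred stock, 10 weeks old at purchase, after 7 days of habituation. All of them, the controls included, received intraperitoneal 5-fluorouracil (5-FU), an antimetabolite that blocks DNA synthesis (20 mg/kg on each of 2 days a week, over 3 weeks). In the elemental diet group (3 libraries) the mice were also given by mouth 1.6 kcal in 0.8 mL per day of Elental, a liquid formula based on free amino acids, given 2 times a day on 5 days a week over the same 3 weeks. The saline group (3 libraries) received an equal amount of saline on that schedule, and its diet is labelled control diet. No group without 5-FU was analysed here, so the contrast is diet against saline under 5-FU. The labels give 3 mice per group without tying each library to 1 mouse, so the tests below weigh a difference against the spread among these libraries, which may be technical.

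Maturing red cells are the main users of iron in the body and put nearly all of it into heme. Transferrin carries iron in plasma and binds transferrin receptor 1 (encoded by Tfrc) on the cell surface; the complex is taken into an endosome, where STEAP3 reduces the iron and the transporter DMT1 (encoded by Slc11a2) moves it into the cytosol. Iron that is not used at once is brought by the chaperone PCBP1 to ferritin, a hollow shell of heavy (Fth1) and light (Ftl1) subunits, and NCOA4 carries ferritin to the lysosome when the iron is needed again. Control of both uptake and storage runs through the iron regulatory proteins IRP1 (Aco1) and IRP2 (Ireb2), which bind a hairpin in the RNA, the iron-responsive element. In a 5′ untranslated region the bound hairpin blocks translation, and in the 3′ untranslated region of the Tfrc transcript it protects the RNA from decay.

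The elements in the member transcripts are shown because this hairpin is what the iron regulatory proteins are known to bind. The motif searched in GENCODE M21 transcripts, on the transcript strand, was a C, 5 bases of any kind and CAGTGN, with those 5 bases able to pair with the 5 bases after CAGTGN, G opposite T allowed. It was found in 3 of the 10 members and in 1.34% of 21901 protein-coding genes. Since control of ferritin and Tfrc through this element was known beforehand, these shares describe the search and are no test of enrichment. Capitals mark the bulged C and the CAGTG of the loop, and each stretch is 30 bases, 5′ to 3′. Base positions are those of the bulged C, while genome coordinates cover the printed stretch, which starts 6 bases earlier.
Fth1 element: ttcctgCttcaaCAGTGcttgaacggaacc
Ftl1 element: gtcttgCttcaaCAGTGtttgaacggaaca
Tfrc element at base 3321: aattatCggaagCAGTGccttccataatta
Tfrc element at base 3700: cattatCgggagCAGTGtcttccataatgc
Tfrc element at base 3765: ctatatCggagaCAGTGatctccatatgtt
Tfrc element at base 3812: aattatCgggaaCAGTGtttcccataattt

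The Fth1 element lay in the 5′ untranslated region, at base 93 of a transcript of 929 bases (GRCm38 chr19:9982732-9982761, plus strand), ahead of the coding region that starts at base 225. The Ftl1 element lay at base 84 of 968, also in the 5′ untranslated region (chr7:45459778-45459807, minus strand), ahead of a coding start at base 254. The 4 Tfrc elements lay in the 3′ untranslated region of the transcript of 4890 bases, whose coding region ends at base 2429, within chr16:32631219-32631739 (plus strand). The other 7 members held no match to these letters, which says nothing about looser forms of the element.

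**Figure D1:**
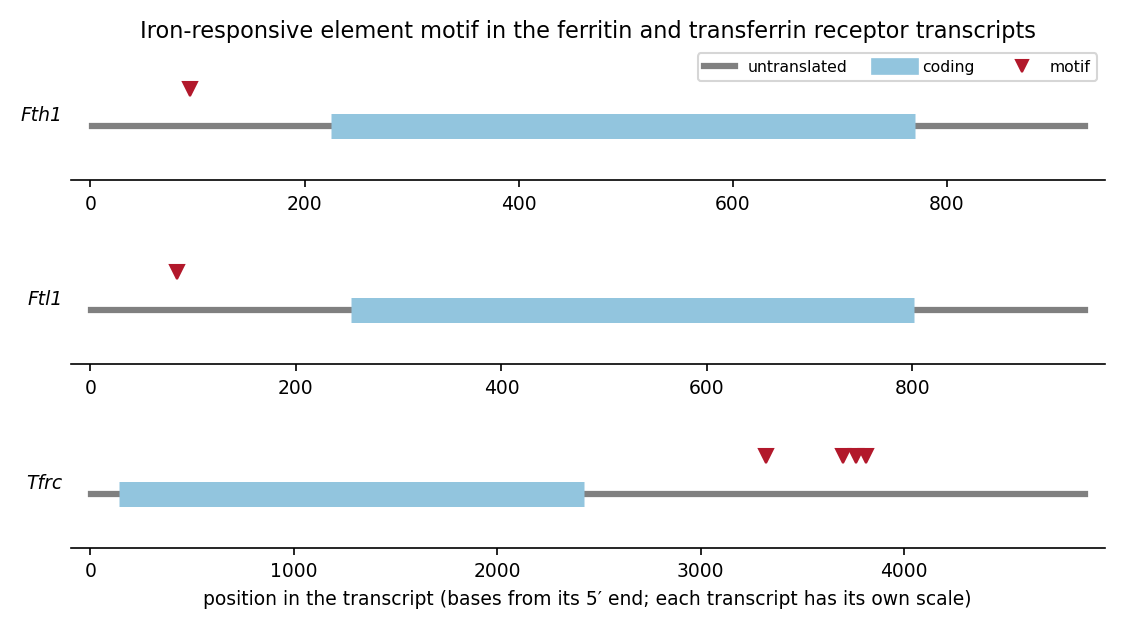
Position of the iron-responsive element motif (triangles) in the Fth1, Ftl1 and Tfrc transcripts; the x axis is the position in bases from the 5′ end, blue boxes are coding regions and grey lines untranslated regions. The single ferritin motifs at bases 93 and 84 lie before the coding region, and the 4 Tfrc motifs at bases 3321 to 3812 lie after it.

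The libraries held 29053287 to 33073125 reads assigned to genes, and levels below are normalized CPM (reads per 1000000 reads after TMM scaling) unless TPM is named. The tissue label, salivary gland, was not borne out by its acinar markers: 5 of 10 acinar genes had no read in any library. The summed acinar level was 4.61 to 5.71 CPM of library totals with elemental diet and 13.2 to 15.5 with saline. All 8 salivary duct and epithelium genes had reads, but only 2 reached 1 CPM in every library. Their summed level was 40.5 to 49.8 CPM with elemental diet and 70.2 to 80.9 with saline. The extraction protocol names fibroblasts or keratinocytes as the RNA source, so the libraries are referred to only as labelled salivary gland. Summed levels of 9 erythroid markers were 23571 to 24389 CPM of library totals with elemental diet against 2162 to 3396 with saline, and all 9 rose. Summed levels of 6 proliferation markers were 3457 to 3899 CPM against 140 to 146, and all 6 rose. The 7 neutrophil markers rose as well (194 to 217 CPM against 8.51 to 11.5). All 5 B cell markers fell, at summed levels of 523 to 587 CPM with elemental diet against 4874 to 5082 with saline. All 5 T cell markers fell too (44.8 to 50.1 CPM against 360 to 430). In both groups the B cell sum was above the acinar sum and the duct and epithelium sum. The part of these cell types in the differences below was not tested. Bulk RNA cannot separate a change in the number of cells of a type from a change in RNA per cell, and this holds for every difference below.

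Iron uptake genes were far higher with elemental diet, Fth1 and Pcbp1 were over 2-fold higher, and Aco1 and Ftl1 were higher by less (1.84-fold and 1.46-fold). Ncoa4 and Ireb2 were little higher, with a direction that depended on the scaling. All 10 members were called higher by edgeR's quasi-likelihood test at a Benjamini-Hochberg adjusted p under 0.05, and the groups did not overlap in any of the 10. Among all 18303 genes tested, 78.1% were called in either direction (38.0% higher and 40.2% lower), and in 81.0% the groups did not overlap (39.0% higher with elemental diet). The member median was a log2 fold change of 1.40, against -0.08 over all genes tested. Over 2-fold higher were 6 members, against 19.1% of all genes, over 4-fold higher were 4 members, against 7.12%, and over 16-fold higher were 3 members (Tfrc, Tfr2 and Steap3), against 1.84%. The number of members called depended on the scaling: with upper quartile scaling or library totals alone, 8 were called and Ireb2 and Ncoa4 turned to slightly lower. Under these scalings the split over all genes moved from 6951 higher and 7352 lower to 5601 and 9051 (upper quartile) and to 5407 and 9265 (library totals), and the all-gene median moved from -0.08 to -0.35 and -0.39.

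**Figure D2:**
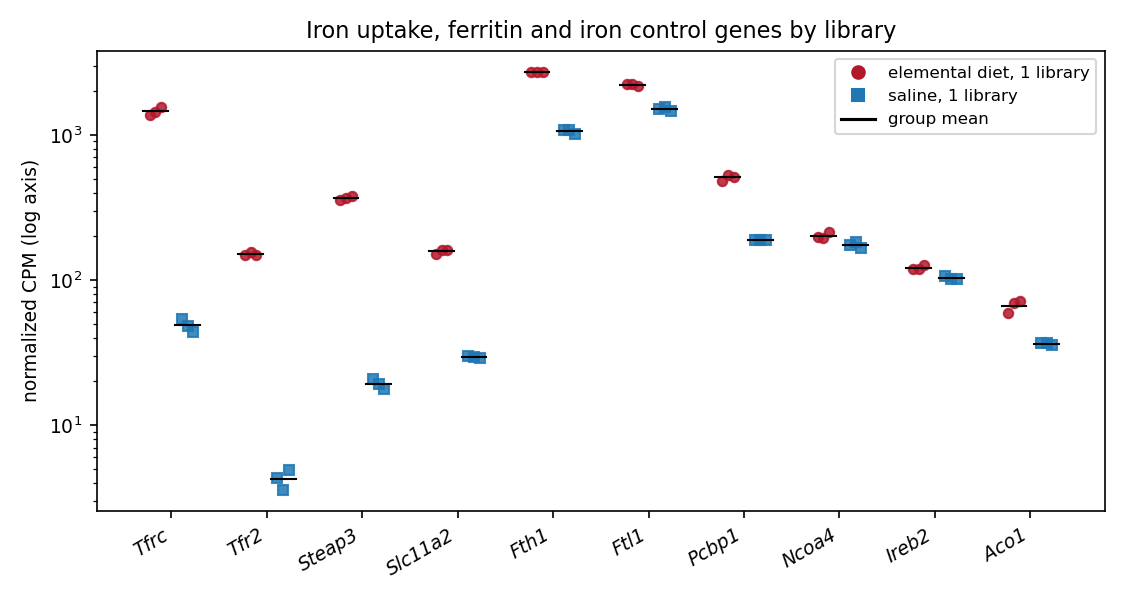
Normalized CPM (log axis) of the 10 genes in each of the 3 elemental diet libraries (circles) and 3 saline libraries (squares), with black bars at the group means. Tfrc, Tfr2 and Steap3 are separated by over 16-fold, whereas the points for Ncoa4 and Ireb2 lie close together.

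Tfrc encodes transferrin receptor 1, the surface receptor through which red cell precursors import iron (chromosome 16, 32608920 to 32632794, plus strand). Its level was 1375, 1440 and 1552 CPM in elemental diet libraries 1, 2 and 3, and 53.7, 48.1 and 44.0 CPM in saline libraries 1, 2 and 3. Every elemental diet library was over 16-fold above every saline library. The means were 1456 ± 89.8 CPM (SD, n = 3) and 48.6 ± 4.83, a 29.9-fold difference (log2 fold change 4.90, SE 0.08, edgeR adjusted p = 5.0e-14). Only 123 of the 18303 genes tested had a higher fold change. Nearly all Tfrc reads (99.98% or more in group means) were unique to the gene.

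Tfr2 encodes transferrin receptor 2, a relative of Tfrc found in liver cells and in red cell precursors, where it associates with the erythropoietin receptor (chromosome 5, 137569840 to 137587481, plus strand). Its level was 148, 156 and 149 CPM in the elemental diet libraries against 4.33, 3.57 and 4.93 CPM in the saline libraries, the latter from 150, 119 and 160 reads. The groups were far apart, at 151 ± 4.25 and 4.28 ± 0.677 CPM (SD, n = 3), and the fold of 35.2 was the highest of the 10 members (log2 fold change 5.14, SE 0.08, edgeR adjusted p = 6.8e-15). Of the 5 other genes on the hepatocyte list, Alb (albumin) had 4 reads over the elemental diet libraries and 9 over the saline libraries, Apoa1 had 8 and 2, Ttr 0 and 5, and Hamp (hepcidin) 0 and 1. The fifth, Serpina1a (an alpha-1 antitrypsin gene), had 545 and 1315 reads and was lower with elemental diet (6.55 against 13.1 CPM in the means, edgeR adjusted p = 9.7e-05).

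Tfrc and Tfr2 moved by similar factors. The ratio of Tfrc to Tfr2 exon reads per kb was 7.23, 7.20 and 8.12 with elemental diet and 9.65, 9.93 and 5.94 with saline, so the groups overlapped. Its log2 difference was -0.14 (exact two-sided permutation p = 0.6), and the 20 arrangements of 3 against 3 libraries cannot give less than 0.1. Saline library 3 was lowest in Tfrc and highest in Tfr2 of the saline libraries, and without it the log2 difference was -0.38; leaving out any other single library gave -0.20 to -0.01.

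Steap3 encodes the endosomal ferrireductase of erythroid precursors (chromosome 1, 120190757 to 120272705, minus strand). Its level was 354, 364 and 380 CPM with elemental diet and 20.8, 19.1 and 17.6 CPM with saline. The groups did not overlap, with means of 366 ± 13.2 and 19.2 ± 1.61 CPM (SD, n = 3), a 19.1-fold difference (log2 fold change 4.25, SE 0.07, edgeR adjusted p = 5.3e-15).

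Slc11a2 encodes DMT1, the divalent metal transporter that moves iron out of the endosome and, in the gut, into enterocytes (chromosome 15, 100387898 to 100425072, minus strand). It rose by less than Steap3, from 29.7, 29.4 and 28.8 CPM with saline to 150, 160 and 162 with elemental diet. The 2 groups were tight and distinct, at 29.3 ± 0.449 and 158 ± 6.23 CPM (SD, n = 3), a 5.38-fold difference (log2 fold change 2.43, SE 0.05, edgeR adjusted p = 5.8e-14). The files list 8 transcripts for Slc11a2 but give reads per gene, so forms with and without an iron-responsive element were not separated.

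The factors of the 4 uptake genes can be read beside those of erythroid and other markers from the same fit. Log2 fold changes of the 9 erythroid markers ranged from 2.74 (Hbb-bt, a beta globin) to 5.79 (Klf1, the erythroid transcription factor). Their median was 3.74. Tfrc, Tfr2 and Steap3 lay in the upper part of that range and Slc11a2 below it. The 6 proliferation markers ranged from 4.02 to 5.77 (median 5.07) and the 7 neutrophil markers from 2.48 to 9.10 (median 7.35). Tfrc, Tfr2 and Steap3 lay within those ranges too, so their factors were not particular to the erythroid list. By root mean square difference of centred log2 CPM, the 3 genes closest in pattern to Tfrc were Rhag (0.018), Ank1 (0.050) and Btnl10 (0.055). The search ran over the 6 libraries and 10333 genes that averaged 10 CPM or more, without pseudogenes and without Gm-number, Rik or clone names. Rhag, a red cell membrane glycoprotein of the Rh complex, read 402, 420 and 442 CPM against 15.9, 14.1 and 12.8, a 29.5-fold difference. Ank1 encodes ankyrin of the red cell skeleton and differed 30.1-fold. These genes were picked by their likeness to Tfrc, so folds near its own follow from the choice and are no separate result.

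Fth1 encodes the ferritin heavy chain, the subunit with ferroxidase activity (chromosome 19, 9982703 to 9985092, plus strand). Its level was 2725, 2714 and 2711 CPM in the elemental diet libraries against 1080, 1074 and 1016 in the saline libraries. The 3 elemental diet libraries were nearly equal (coefficient of variation 0.273%), and the groups did not overlap. The means were 2717 ± 7.42 and 1057 ± 35.3 CPM (SD, n = 3), a 2.57-fold difference (log2 fold change 1.36, SE 0.04, edgeR adjusted p = 2.1e-12). Transcripts with the closest pattern were Cops5, Leo1 and Nudc, at root mean square differences of 0.021, 0.029 and 0.032 in log2 CPM over the 6 libraries.

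Ftl1 encodes the ferritin light chain, which favours iron core formation (chromosome 7, 45457944 to 45459884, minus strand). Elemental diet libraries read 2228, 2241 and 2166 CPM, and saline libraries 1498, 1567 and 1466 CPM. The groups were closer than for Fth1 but did not overlap, with means of 2212 ± 40.4 and 1511 ± 51.8 CPM (SD, n = 3), a 1.46-fold difference (log2 fold change 0.55, SE 0.04, edgeR adjusted p = 4.1e-08). With library totals alone the log2 fold change was 0.24, and with upper quartile scaling 0.28, both still called.

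Reads of Ftl1 were mostly shared with other places in the genome, which sets it apart from the other 9 members. Unique reads made up 32.3% to 32.5% of its reads with elemental diet and 32.9% to 34.4% with saline, against at least 99.47% in every library for each other member. A BLAST search of the Ftl1 transcript against GENCODE M21 found 19 other genes with at least 300 aligned bases at 85% identity or more. Most of the 19 were processed pseudogenes. Of the 19, 3 have a row among the counts, and none of these 3 is annotated as a processed pseudogene. For Fth1 the same search found 2, neither with a row. The row Ftl1-ps1, 99.6% identical over 910 bases, held 1339 reads over the 6 libraries, 38 of them unique. With unique reads only, the log2 fold change of Ftl1 was 0.45 and that of Fth1 1.33. The 6 Fthl17 rows, X-linked ferritin heavy chain relatives, had no read in any library.

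Summed over all 9 rows named Fth or Ftl, ferritin reached 4936 ± 45.3 CPM in the elemental diet libraries against 2574 ± 80.6 in the saline libraries (SD, n = 3), a 1.92-fold difference with no overlap (two-sided exact permutation p = 0.1, the floor of 3 against 3). With unique reads the sum differed 2.19-fold. On the TPM scale, which accounts for transcript length, Fth1 and Ftl1 together took 1.25% ± 0.0256 of transcripts with elemental diet and 0.815% ± 0.0329 with saline. Macrophages that recycle iron also hold much ferritin; of their 10 markers, which include Hmox1 and Slc40a1, 8 fell and 0 rose, and the summed level was 737 to 890 CPM of library totals with elemental diet against 1744 to 2140 with saline. Their part in the ferritin difference was not tested.

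At the RNA level, the balance of the 2 ferritin subunits differed between the libraries of the 2 groups. Protein was not measured. The ratio of Fth1 to Ftl1 exon reads per kb was 1.87, 1.85 and 1.92 with elemental diet and 1.10, 1.05 and 1.06 with saline. All 3 elemental diet values were above all 3 saline values, by 1.76-fold in the mean (two-sided exact permutation p = 0.1, the floor of 3 against 3). With unique reads the ratios were 5.85 ± 0.113 and 3.19 ± 0.0454 (SD, n = 3), so the level of the ratio depends on how shared reads are counted, while the difference between the groups was 1.83-fold.

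The ratio of receptor to ferritin RNA differed by more. Tfrc exon reads per kb were 0.0697, 0.0734 and 0.0788 of those of Fth1 with elemental diet, and 0.00638, 0.00562 and 0.00546 with saline. The groups were 12.7-fold apart (log2 difference 3.67, two-sided exact permutation p = 0.1, the floor of 3 against 3). This ratio holds for any library scaling, since both genes are read in the same library.

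**Figure D3:**
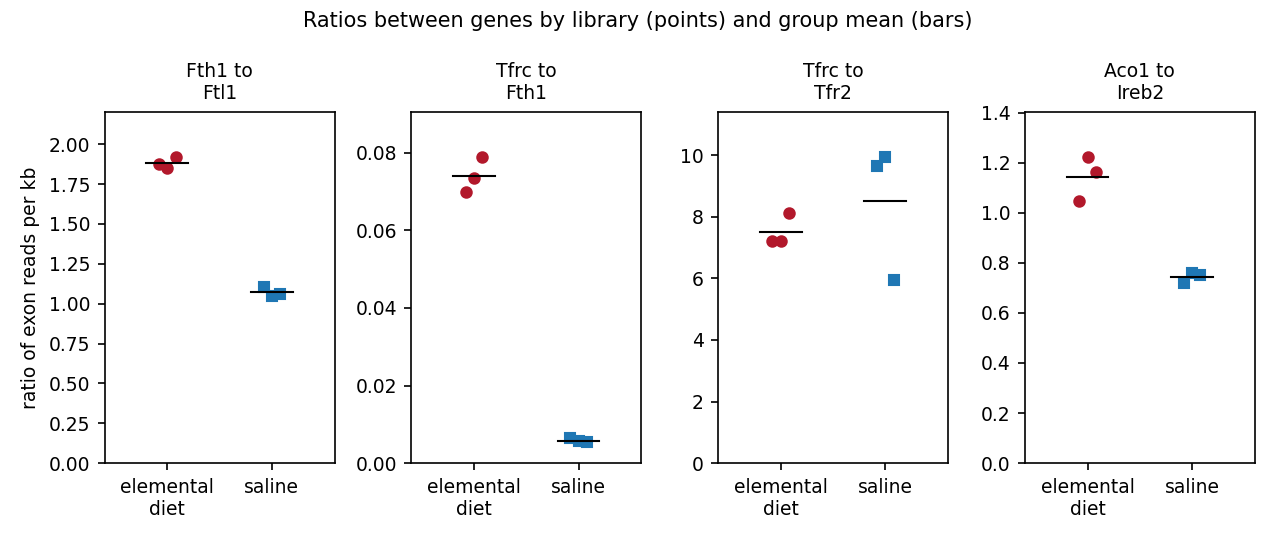
Ratio of exon reads per kb of 4 gene pairs in each library (circles elemental diet, squares saline, black bars group means; each panel has its own y axis starting at 0). Fth1 to Ftl1, Tfrc to Fth1 and Aco1 to Ireb2 are separated between the groups, at mean ratios of 1.88 against 1.07, 0.0740 against 0.00582 and 1.14 against 0.743, and Tfrc to Tfr2 overlaps.

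Pcbp1 encodes poly(rC)-binding protein 1, an RNA-binding protein that also delivers iron to ferritin (chromosome 6, 86524492 to 86526321, minus strand). Elemental diet libraries held 484, 530 and 516 CPM, and saline libraries 190, 187 and 187 CPM. The groups were distinct, at 510 ± 23.6 and 188 ± 1.48 CPM (SD, n = 3), a 2.71-fold difference (log2 fold change 1.44, SE 0.05, edgeR adjusted p = 3.8e-12). Its relative Pcbp2, which also binds iron, rose 1.55-fold.

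Ncoa4 encodes the receptor that carries ferritin to the lysosome (chromosome 14, 32159865 to 32179855, plus strand). Levels were 198, 196 and 213 CPM after elemental diet and 173, 181 and 167 CPM after saline. The groups did not overlap on this scale, with means of 202 ± 9.62 and 174 ± 7.22 CPM (SD, n = 3), but the difference of 1.16-fold was small (log2 fold change 0.22, SE 0.05, edgeR adjusted p = 0.0016). It did not keep its direction under other scalings, at -0.05 with upper quartile scaling (adjusted p = 0.31) and -0.09 with library totals alone (adjusted p = 0.091). With exon reads only it was 0.11 (adjusted p = 0.069). In TPM, Ncoa4 was lower with elemental diet, at 56.0 ± 2.60 against 63.9 ± 3.26.

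Ireb2 encodes iron regulatory protein 2, which is removed by iron-dependent degradation (chromosome 9, 54863789 to 54912530, plus strand). Its level was 118, 119 and 128 CPM with elemental diet and 106, 102 and 102 CPM with saline. The gap was narrow, between means of 122 ± 5.19 and 104 ± 2.43 CPM (SD, n = 3), a 1.17-fold difference (log2 fold change 0.23, SE 0.05, edgeR adjusted p = 0.00080). Upper quartile scaling gave -0.04 (adjusted p = 0.40) and library totals alone -0.08 (adjusted p = 0.11), and the TPM groups overlapped.

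Aco1 encodes iron regulatory protein 1, which serves as cytosolic aconitase when it holds an iron-sulfur cluster and binds RNA when it does not (chromosome 4, 40143081 to 40198338, plus strand). It was higher with elemental diet, at 59.2, 69.1 and 71.4 CPM against 36.5, 36.6 and 35.4 with saline. The elemental diet libraries spread more than the saline libraries, yet all stood above them, with means of 66.6 ± 6.46 and 36.2 ± 0.682 CPM (SD, n = 3), a 1.84-fold difference (log2 fold change 0.88, SE 0.07, edgeR adjusted p = 4.3e-08). Unlike Ireb2, Aco1 was called higher under every scaling tried, with the lowest log2 fold change, 0.57, under library totals alone.

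The RNA balance of the 2 iron regulatory proteins also stood apart between the libraries of the 2 groups, and protein was not measured. The ratio of Aco1 to Ireb2 exon reads per kb was 1.05, 1.22 and 1.16 with elemental diet and 0.720, 0.759 and 0.750 with saline. No value was shared between the groups, which were 1.54-fold apart (two-sided exact permutation p = 0.1; 4 gene pairs were compared, giving a Benjamini-Hochberg adjusted p of 0.13 for each of the 3 that did not overlap).

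**Figure D4:**
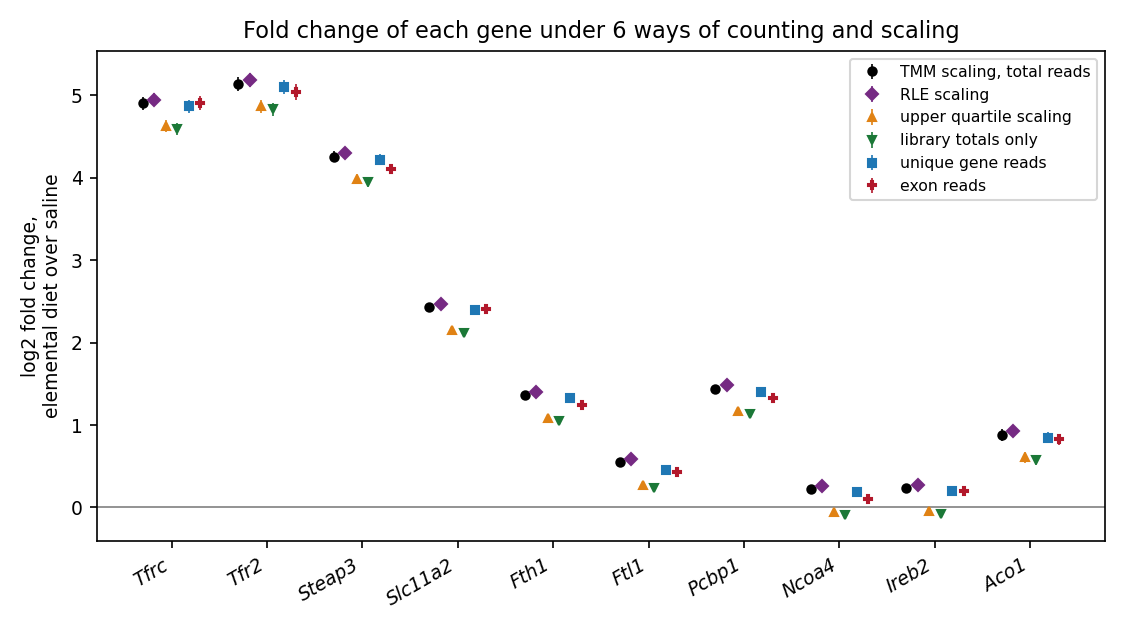
Log2 fold change (elemental diet over saline, y axis) of the 10 genes under 6 ways of counting and scaling; vertical lines are standard errors and the grey line marks no difference. Upper quartile scaling and library totals lie below the other settings for every gene, and only Ncoa4 and Ireb2 cross the grey line, at -0.05 and -0.09 and at -0.04 and -0.08.

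Ordered by TPM, the members ranked differently in the groups. With elemental diet the order was Fth1 (8138 ± 153 TPM, SD, n = 3), Ftl1 (4327 ± 118), Pcbp1 (732 ± 22.4), Tfrc (602 ± 29.2), Steap3 (156 ± 3.34), Tfr2 (80.1 ± 1.89), Slc11a2 (57.0 ± 1.29), Ncoa4, Aco1 (36.6 ± 2.98) and Ireb2 (32.0 ± 1.32). Slc11a2 and Ncoa4 overlapped there, as did Aco1 and Ireb2. With saline Fth1 (4216 ± 183 TPM) and Ftl1 (3935 ± 164) overlapped at the top, Pcbp1 was at 360 ± 5.92, and the uptake genes took the last 4 places, from Tfrc (24.6 ± 2.93) through Slc11a2 (13.2 ± 0.349) and Steap3 (11.1 ± 0.927) to Tfr2 (3.00 ± 0.635). Tfrc and its neighbour Aco1 (25.4 ± 0.567) overlapped in that group.

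Reads in introns, which can come from RNA not yet spliced or from retained introns, made up a different share of several members. For Tfrc the intron share was 2.68%, 2.53% and 3.14% with elemental diet and 9.58%, 11.7% and 11.2% with saline, with no overlap. Scaled by total gene reads, exon reads of Tfrc were 32.6-fold higher with elemental diet. Its intron reads were 7.78-fold higher (40.7 ± 6.99 against 5.23 ± 0.353 normalized CPM). Shares were also lower without overlap for Slc11a2 (12.6% ± 0.760 against 18.4% ± 0.0902), Ireb2 (5.43% ± 0.362 against 10.9% ± 0.741), Aco1 (6.08% ± 0.249 against 9.97% ± 0.813) and Ncoa4 (1.55% ± 0.0494 against 1.74% ± 0.184). The intron share of all reads was lower as well, 8.64% ± 0.225 against 14.0% ± 0.341, and its part in these differences was not tested. For each of these 5 genes exact permutation over libraries (two-sided) gave p = 0.1, and 0.2 after Benjamini-Hochberg adjustment over the 10 members. That adjustment also counts Pcbp1, which has no annotated intron.

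Steap3 and Tfr2 did not follow that pattern in every library. The intron share of Steap3 was 6.67%, 7.05% and 7.73% with elemental diet and 7.49%, 2.99% and 5.24% with saline (exact permutation p = 0.3). For Tfr2 it was 12.2%, 12.2% and 12.7% against 18.7%, 16.0% and 6.25% (exact permutation p = 0.7). The saline values rest on few intron reads, 57 for Tfr2 and 103 for Steap3 over the 3 libraries, and the Tfr2 difference of -1.27 percentage points had no settled sign: it was 1.24 without saline library 1, -0.11 without saline library 2 and -4.96 without saline library 3. Scaled by total gene reads, intron reads of Ireb2 were lower with elemental diet (6.60 ± 0.315 against 11.3 ± 0.656 normalized CPM). Its exon reads were 1.25-fold higher on that scale, which takes no account of the different intron share of all reads. In the fit to exon reads alone its log2 fold change was 0.20. Before scaling, its exon reads summed to 9448 with elemental diet and 9283 with saline. Fth1 and Ftl1 had shares of 1.42% or less in every library. Pcbp1 is annotated as 1 transcript, and its exon length of 1830 bases fills the span of the gene, leaving no intron. The 26 reads with elemental diet and 4 with saline counted as intron for Pcbp1 therefore have no annotated intron to come from. Its intron share was not interpreted.

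**Figure D5:**
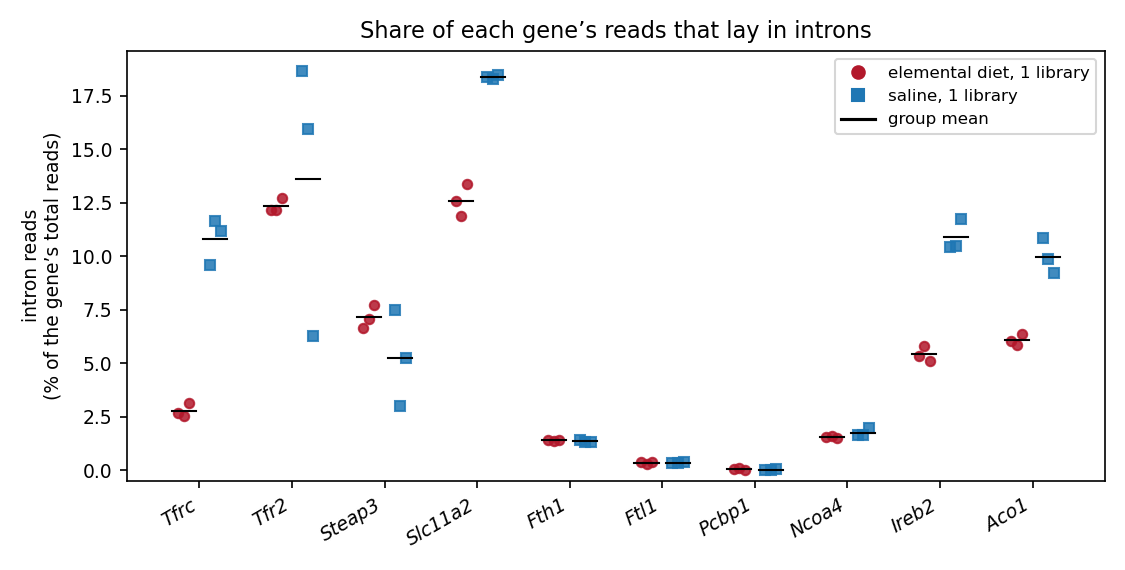
Share of each gene's total reads that lay in introns (y axis, percent) in the 3 elemental diet libraries (circles) and 3 saline libraries (squares), with black bars at the group means. Tfrc, Slc11a2, Ireb2 and Aco1 are clearly higher with saline (group means of 10.8% against 2.78% for Tfrc), and Tfr2 and Steap3 overlap. Pcbp1 has no annotated intron.

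RefSeq promoters (GRCm38.p6, 250 bases before to 50 after each start) were found for 9 of the 10 members. The GATA motif, taken as AGATAA or TGATAA on either strand, which share GATAA and were counted together, is the site of the erythroid factor GATA1. It was present in 1 of 3 promoters of Tfr2 and 1 of 4 of Steap3, and in none of those of the other 7 genes, which makes 2 of 18 member promoters (11.1%). It was held by 18.6% of all 32851 RefSeq promoters of that length.

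Other iron genes were read from lists of 52 genes in 5 groups, all found in the files, 3 of them under another symbol. Of the 49 tested, 28 rose and 19 fell (95.9% called, against 78.1% of all genes), with a median log2 fold change of 0.58. Over all genes tested 38.0% rose and 40.2% fell, which stands beside the counts of each list below. Mitochondrial iron import and iron-sulfur cluster assembly moved mostly upward: of 14 tested genes 12 rose and 1 fell. Abcb10, a mitochondrial transporter that stabilises the iron importer mitoferrin, rose 11.9-fold to 528 ± 35.6 CPM, and Isca1, an iron-sulfur assembly factor, rose 4.71-fold. The one that fell was Slc25a28, the mitoferrin of non-erythroid cells, at 31.4 ± 2.31 against 48.6 ± 3.35 CPM.

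Genes of uptake and endosome traffic split, 5 higher and 8 lower of 13 tested. Picalm, a clathrin assembly protein needed for transferrin receptor endocytosis, rose 3.55-fold to 770 ± 62.6 CPM, and Snx3, a sorting nexin that recycles the receptor, rose 2.29-fold. Slc11a1, the phagosomal metal transporter of macrophages, fell from 52.4 ± 5.50 to 24.0 ± 1.92 CPM, and Hfe, the partner of the transferrin receptors that is mutated in hemochromatosis, from 24.6 ± 1.29 to 14.4 ± 1.77.

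Of 8 tested genes of iron export and systemic control 2 rose and 6 fell. Erfe, the erythroid hormone erythroferrone that suppresses hepcidin, rose 20.4-fold, from 2.36 ± 0.336 to 48.3 ± 3.65 CPM. Tmprss6, a protease that restrains hepcidin expression in liver, had 132 reads over the elemental diet libraries and 6 over the saline libraries. Cp (ceruloplasmin, a ferroxidase for iron export) fell from 70.5 ± 3.25 to 27.2 ± 1.53 CPM and Bmp6, a signal for hepcidin, from 22.6 ± 1.63 to 8.61 ± 0.289.

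Among 10 genes of iron chaperones, ferritin turnover and iron sensing 6 rose and 3 fell. Ciao1, a factor of cytosolic iron-sulfur assembly, rose 1.95-fold. Hmox1, heme oxygenase 1, fell from 248 ± 21.6 to 104 ± 6.22 CPM, and Fbxl5, the iron-sensing ubiquitin ligase subunit that targets IRP2, from 107 ± 4.55 to 53.9 ± 2.98. Of 4 further genes whose transcripts are known to carry an iron-responsive element, 3 rose and 1 fell. Cdc42bpa, a kinase, rose 3.87-fold, and Epas1 (HIF-2 alpha) fell from 182 ± 3.97 to 61.1 ± 4.62 CPM.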

How the data were processed

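Polyadenylated RNA of 6 libraries was sequenced as 75 bp paired reads, per the labels' protocols. Per the file headers, the authors deposited whole-number read counts per gene (total and unique; exon and intron), and TPM computed by the authors from exon reads and exon length. The submitters' processing notes name the builds GRCm38 and GRCh37; the aligner, the counter and any use of strand: not given in the sources used here. Coordinates are those of the files, equal to GENCODE M21 for 9 of 10 members; the exception is Fth1. Total gene counts were fitted over all genes with edgeR 4.0.16 (R 4.3.3; TMM, filterByExpr, robust quasi-likelihood test, two-sided, Benjamini-Hochberg), tested on simulated data first; there, with few changed genes, the share of false calls among the genes called exceeded the threshold and most changes as small as those of Ncoa4 and Ireb2 were missed. The SE was approximated from the F statistic (|log2 fold change| over its root). Alternatives used DESeq2 1.42.0 and the settings named in the closing section. A count of 0 allows 3 reads (0.0907 to 0.103 CPM), for counting error only. Replicates differed by at least 2.98 times sampling noise. Members and lists were chosen with earlier results of these data known. Named genes are the members, at most the 2 companion genes with the smallest p per list and direction, and the 3 genes most like Tfrc and Fth1; Hbb-bt and Klf1 were picked from the erythroid list after their values were seen. One gene that this rule names is not reported here.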

Additional observations from a re-analysis of the deposited data

How the results depend on the processing

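Of the 10 members 8 kept their direction and call under every alternative run: unique or exon reads, RLE, upper quartile or no composition scaling, no low-count filter, DESeq2, the replicate block and each library left out. Ireb2 turned to -0.041 (upper quartile) and -0.078 (library totals), and Ncoa4 to -0.052 and -0.089; none of these 4 values was called, and the cause was not tested. The log2 difference of the Fth1 to Ftl1 ratio was 0.81, and 0.87 with unique exon reads; the ferritin sum moved to 1.13 with unique reads, since the Ftl1 row loses its shared reads. Leaving out single libraries gave 10 members called each time. In the same runs 13770 to 14675 of the 18663 to 19004 genes tested were called, so most genes were. The log2 fold changes were 4.83 to 4.96 for Tfrc, 5.01 to 5.25 for Tfr2 and 1.33 to 1.38 for Fth1. For the other iron genes 44 to 48 were called. The Fth1 to Ftl1 log2 difference ranged from 0.80 to 0.83, that of Tfrc to Fth1 from 3.62 to 3.74 and the ferritin sum from 0.92 to 0.96. Same-numbered libraries are not stated to be paired, and their deviations from the group means correlated at 0.15, -0.02 and 0.12. With the replicate block all 10 members were called, as were 14241 of the 18303 genes tested. The ratios of Tfrc to Tfr2 and of Aco1 to Ireb2 and the sequence search for ferritin copies were added after seeing the data.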
